A study of Mus musculus with 8 samples.

Results

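Nodal, Lefty1, Lefty2, Tdgf1, Gdf3, Cer1, Skil, Acvr2b and Foxh1, 9 genes of the Nodal and activin pathway, were followed in mouse ES cells of 4 Tbxt genotypes. The genes were taken by name from the pathway, with earlier results of these data known, and all 9 were found among the 48440 genes counted in each library. RNA was sequenced at day 1 of in vitro differentiation, 2 libraries per genotype, from derivatives of the C57BL/6J line MK6. Tbxt encodes the T-box factor Brachyury, and the comparisons ask how the transcriptome differs between cells whose Tbxt is intact and cells edited to lose or skip exon 6.

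Wild-type cells carry no edit and serve as controls. TbxtΔexon6/Δexon6 cells lack exon 6 of Tbxt on both alleles after CRISPR editing, and their 2 libraries come from different clones. TbxtΔexon6/+ cells carry the deletion on 1 allele and an intact second allele. TbxtinsASAY/insASAY cells carry human AluY and AluSx1 elements in the introns that flank exon 6. The sample labels give only the insertion, and its homozygosity was taken from the study's design and methods. All 4 lines were differentiated without feeder cells, with the GSK3 inhibitor CHIR99021 in N2/B27 medium. Their earlier handling differed: exon 6 was deleted in cells grown without feeders, and the Alu pair was inserted in cells on fibroblast feeders. The deletion lines were selected with blasticidin and the insertion line with puromycin, then ganciclovir. No source used here says whether the 2 replicates of lines other than TbxtΔexon6/Δexon6 are separate clones, so p-values measure the spread between these cultures.

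Nodal is a secreted ligand of the TGF-β family that acts through activin receptors together with an EGF-CFC co-receptor such as Tdgf1 (Cripto). The receptors phosphorylate Smad2 and Smad3, which join Smad4 and act with the DNA-binding factor Foxh1 at enhancers, including those of Nodal itself and of its antagonists Lefty1 and Lefty2. This loop of self-activation and delayed inhibition patterns the early embryo, keeps epiblast cells pluripotent and drives formation of the primitive streak, where Tbxt is expressed.

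Libraries held between 24618587 and 28445952 reads on genes, with a median of 26587768.5, and the expression of a gene is given as CPM, its reads relative to the TMM-scaled total of the library. Of the 9 genes, 8 passed the filter on low counts and were tested among 17049 genes. Calls required a log2 fold change beyond 0.5 in size and an adjusted p below 0.05 in edgeR's quasi-likelihood test, Benjamini-Hochberg adjusted over all tested genes. ES cell identity was checked on a list of 10 pluripotency genes, none at 0 in any library, whose summed level was 1276 and 1319 CPM in wild-type libraries. The replicates of TbxtΔexon6/Δexon6 stood further apart than those of any other genotype, with a chi-square of 10.5 per degree of freedom over genes against 2.65 to 3.27 elsewhere.

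Nodal, Tdgf1, Lefty1, Lefty2 and Skil were lowest in TbxtΔexon6/+ cells, below the libraries of each of the other 3 genotypes. The share of all tested genes with such a lack of overlap is not given here, so this is a description only. Against wild-type, 4 of the 8 tested genes (Nodal, Tdgf1, Lefty1 and Lefty2) were called lower in TbxtΔexon6/+ cells and none higher. In the same comparison 13.5% of all tested genes were called and 6.89% were called lower. In TbxtΔexon6/Δexon6 cells 2 of 8 were called, both lower (Tdgf1 and Lefty2), beside 12.7% of all tested genes called and 6.59% called lower. In TbxtinsASAY/insASAY cells 1 of 8 was called, Lefty1, which rose, beside 21.3% of all tested genes called and 11.5% called higher. These 3 comparisons share the wild-type libraries. Gdf3, Acvr2b, Foxh1 and Skil passed the threshold on size in none of them. Bulk RNA cannot tell fewer expressing cells from less RNA per cell, and this holds for every level given here.

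**Figure D1:**
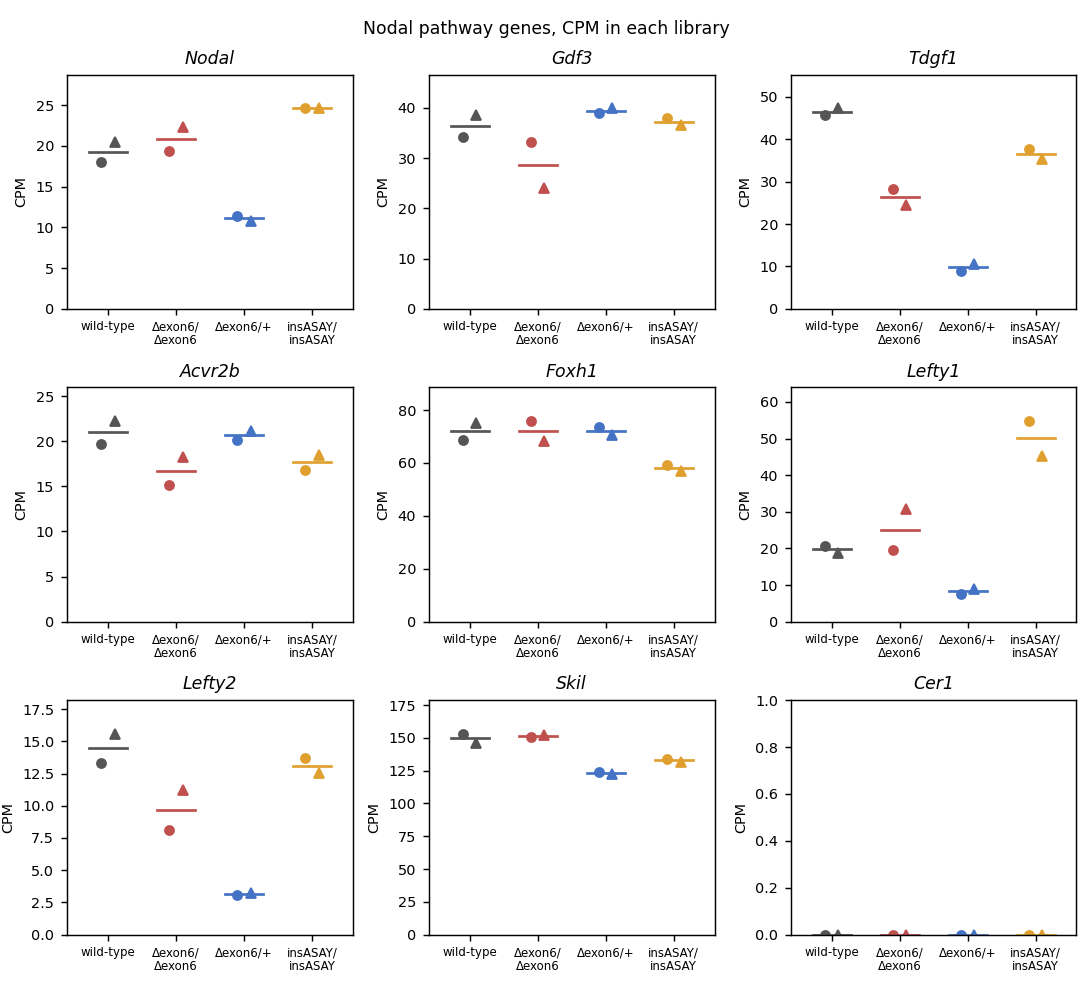
Expression of the 9 genes in CPM (linear axis from 0) in each of the 8 libraries, by genotype; circles are replicate 1, triangles replicate 2 and bars the mean of both. In TbxtΔexon6/+ the points of Nodal, Tdgf1, Lefty1, Lefty2 and Skil lie below all points of the other genotypes. Lefty1 is highest in TbxtinsASAY/insASAY, and Cer1 is at 0 throughout.

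Levels of different genes were compared per length, as CPM per kilobase of exon, and the ratios of read counts given further below are not scaled by length. In wild-type cells Foxh1 was the highest by that scale, at 50.3 and 55.1 CPM per kilobase. Tdgf1 (17.4 and 18.1), Skil (15.8 and 15.1) and Gdf3 (14.1 and 15.9) followed, with overlapping values for Skil and Gdf3. Lefty1 stood at 11.8 and 10.6 CPM per kilobase and Nodal at 8.63 and 9.81. Lefty2 (5.10 and 5.97) and Acvr2b (5.02 and 5.67) were the lowest of the genes with reads and overlapped. In TbxtΔexon6/+ cells Tdgf1 stood at 3.44 and 4.01 CPM per kilobase, below Acvr2b at 5.13 and 5.39.

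Of the ligands, Nodal (chr10:61417972-61425338, plus strand of GRCm38) had 18.1 and 20.5 CPM in wild-type, 19.4 and 22.3 in TbxtΔexon6/Δexon6, 11.4 and 10.8 in TbxtΔexon6/+ and 24.6 and 24.7 in TbxtinsASAY/insASAY libraries. The TbxtΔexon6/+ libraries lay below all others, the TbxtinsASAY/insASAY libraries above all others, and the TbxtΔexon6/Δexon6 libraries overlapped wild-type. Nodal fell in TbxtΔexon6/+ cells by 0.80 on the log2 scale (SE 0.10, adjusted p = 6.11e-05), which is 1.74-fold lower than in wild-type. Its difference from wild-type in TbxtinsASAY/insASAY cells, 0.35 (SE 0.0919, adjusted p = 0.00684), passed the test but not the threshold on size. In TbxtΔexon6/Δexon6 cells the difference was 0.11, with a 95% interval of -0.09 to 0.32.

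Gdf3 (chr6:122605403-122610087, minus strand), a TGF-β family ligand that works with Nodal and the same co-receptor, had 34.2 and 38.5 CPM in wild-type, 33.1 and 24.0 in TbxtΔexon6/Δexon6, 39.0 and 40.0 in TbxtΔexon6/+ and 37.9 and 36.6 in TbxtinsASAY/insASAY libraries. It was lowest in the second TbxtΔexon6/Δexon6 clone, and the TbxtΔexon6/+ libraries, low for Nodal, were the highest for Gdf3. The log2 difference from wild-type was 0.12 (95% interval -0.12 to 0.36) in TbxtΔexon6/+ and 0.04 (-0.21 to 0.28) in TbxtinsASAY/insASAY cells. In TbxtΔexon6/Δexon6 cells it was -0.35 (SE 0.115, adjusted p = 0.0308), under the threshold on size, and it passed both thresholds without the first clone, at -0.59.

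Tdgf1 (chr9:110939603-110946158, minus strand), the membrane-anchored co-receptor through which Nodal and Gdf3 engage activin receptors, was ordered across the genotypes. It had 45.7 and 47.4 CPM in wild-type, 37.6 and 35.5 in TbxtinsASAY/insASAY, 28.2 and 24.5 in TbxtΔexon6/Δexon6 and 9.01 and 10.5 in TbxtΔexon6/+ libraries. No genotype overlapped another. Tdgf1 fell 4.78-fold in TbxtΔexon6/+ cells (log2 fold change -2.26, SE 0.095, adjusted p = 1.27e-08). It fell 1.77-fold in TbxtΔexon6/Δexon6 cells (log2 fold change -0.82, SE 0.0842, adjusted p = 4.7e-05). The difference in TbxtinsASAY/insASAY cells, -0.35 (SE 0.0817, adjusted p = 0.00354), passed the test but not the threshold on size.

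The promoter of Tdgf1 is shown because its gene had the largest difference from wild-type of the 8, in TbxtΔexon6/+ cells. A further reason was that it matched patterns searched for the pathway's own DNA-binding factors. The RefSeq promoter table (GRCm38.p6) held Nodal, Tdgf1, Cer1 and Acvr2b, 4 of the 9 genes, and held no entry for Lefty1, Lefty2, Gdf3, Skil or Foxh1. The 250 bases before each start were searched on both strands for the FOXH1 core AATNNACA, the SMAD element CAGAC and the T-box half-site AGGTGTGA. The Tdgf1 sequence is read 5′ to 3′ along the gene, chr9:110946159-110946408 on the minus strand, with the matches in capitals.
Tdgf1 promoter: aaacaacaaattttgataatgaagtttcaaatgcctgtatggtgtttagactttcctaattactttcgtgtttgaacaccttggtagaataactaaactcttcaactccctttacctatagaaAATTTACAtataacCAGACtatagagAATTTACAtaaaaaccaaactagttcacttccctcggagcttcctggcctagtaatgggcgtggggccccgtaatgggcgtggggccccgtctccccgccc
The FOXH1 core pattern matched at positions -127 and -101 from the start and the SMAD element at -113, between them, with no overlap. That pattern allows any base at its middle positions (N), so a match need not be a FOXH1 site. Both matches read AATTTACA. Of 32851 promoters in the table, 10.9% held the FOXH1 core, 1.12% held it at least 2 times and 0.405% held it at least 2 times together with a SMAD element. The SMAD element alone stood in 42.2% of promoters, Cer1 and Acvr2b included with 1 match each. The Nodal window held none of these letters, and the T-box half-site, in 1.12% of all promoters, was in none of the 4 windows. This promoter was chosen partly for these letters, so the shares above describe it and test nothing. These are matches of letters, and binding was not measured.

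Acvr2b (chr9:119402118-119434995, plus strand), a type II receptor for activin and Nodal, had 19.7 and 22.2 CPM in wild-type, 15.1 and 18.3 in TbxtΔexon6/Δexon6, 20.1 and 21.2 in TbxtΔexon6/+ and 16.8 and 18.5 in TbxtinsASAY/insASAY libraries. The TbxtΔexon6/+ values lay within the wild-type range, whereas both other lines lay below it. The log2 difference from wild-type was -0.02 (95% interval -0.24 to 0.20) in TbxtΔexon6/+ and -0.25 (-0.47 to -0.03) in TbxtinsASAY/insASAY cells, with adjusted p = 0.897 and 0.0634. In TbxtΔexon6/Δexon6 cells it was -0.33 (SE 0.104, adjusted p = 0.0268), under the threshold on size. An antisense gene, Gm47320, lies within Acvr2b on the opposite strand, and the counts used here keep the strands apart.

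Lefty1 and Lefty2, secreted antagonists that block Nodal and its co-receptor and are themselves induced by Nodal, lie close together on chromosome 1. Their coding sequences are both 1107 bases long and identical at 1017 bases (91.9%). Their longest identical run of coding bases is 140 long. Over the whole transcripts, 12 windows of 150 bases, the length of a read, were identical between the genes. These were 0.747% of the windows of Lefty1 and 0.488% of those of Lefty2, and 0.181% of the windows of Tdgf1 occurred in its pseudogene Tdgf1-ps1. No window of the other 6 genes occurred in another gene.

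Lefty1 (chr1:180935022-180938400, plus strand) had 20.8 and 18.7 CPM in wild-type, 19.6 and 30.7 in TbxtΔexon6/Δexon6, 7.69 and 8.91 in TbxtΔexon6/+ and 54.8 and 45.3 in TbxtinsASAY/insASAY libraries. The TbxtinsASAY/insASAY libraries lay above all others and the TbxtΔexon6/+ libraries below all others. Lefty1 rose 2.54-fold in TbxtinsASAY/insASAY cells (log2 fold change 1.34, SE 0.158, adjusted p = 2.82e-05). It fell 2.38-fold in TbxtΔexon6/+ cells (log2 fold change -1.25, SE 0.189, adjusted p = 0.000257). The 2 TbxtΔexon6/Δexon6 clones disagreed: the first lay within the wild-type range and the second above it. The log2 difference of TbxtΔexon6/Δexon6 from wild-type was 0.36 (adjusted p = 0.11) over both clones, -0.01 with the first clone alone and 0.65 (adjusted p = 3.43e-05), past both thresholds, with the second clone alone.

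Lefty2 (chr1:180893108-180899103, plus strand) had 13.3 and 15.6 CPM in wild-type, 8.10 and 11.3 in TbxtΔexon6/Δexon6, 3.10 and 3.19 in TbxtΔexon6/+ and 13.7 and 12.5 in TbxtinsASAY/insASAY libraries. Both deletion lines lay below wild-type without overlap, whereas TbxtinsASAY/insASAY overlapped it. Lefty2 fell 4.59-fold in TbxtΔexon6/+ cells (log2 fold change -2.20, SE 0.168, adjusted p = 9.33e-07). It fell 1.49-fold in TbxtΔexon6/Δexon6 cells (log2 fold change -0.57, SE 0.142, adjusted p = 0.00768). That call was lost without the second wild-type library (-0.46, adjusted p = 0.087) and without the first clone (-0.35). In TbxtinsASAY/insASAY cells, where Lefty1 rose, the log2 difference of Lefty2 was -0.14 with a 95% interval of -0.44 to 0.16.

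**Figure D2:**
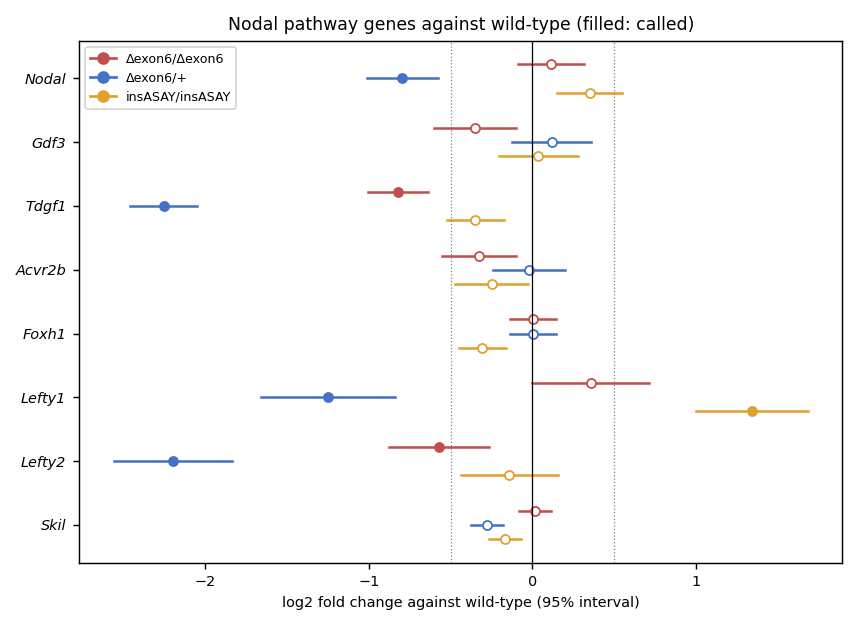
Log2 fold change against wild-type (points) with 95% intervals (lines) for the 8 tested genes in the 3 mutant lines, from edgeR's fit of all 8 libraries; filled points passed both thresholds and dotted lines mark the threshold on size. The filled points are Nodal, Tdgf1, Lefty1 and Lefty2 in TbxtΔexon6/+, Tdgf1 and Lefty2 in TbxtΔexon6/Δexon6 and Lefty1 in TbxtinsASAY/insASAY.

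The balance between the antagonists and their ligand was described as ratios of read counts within each library, which need no scaling between libraries. They are not scaled by gene length, so they compare libraries and do not give the relative abundance of the transcripts. The Lefty1 to Lefty2 ratio was 1.56 and 1.20 in wild-type, 2.42 and 2.73 in TbxtΔexon6/Δexon6, 2.48 and 2.79 in TbxtΔexon6/+ and 4.003 and 3.62 in TbxtinsASAY/insASAY libraries. All 6 mutant libraries exceeded both wild-type libraries, and the 2 deletion lines overlapped each other. The Lefty2 to Nodal ratio was 0.736 and 0.759 in wild-type, 0.417 and 0.505 in TbxtΔexon6/Δexon6, 0.272 and 0.294 in TbxtΔexon6/+ and 0.556 and 0.507 in TbxtinsASAY/insASAY libraries, lower than wild-type in all 6 mutant libraries. The Lefty1 to Nodal ratio was 1.15 and 0.908 in wild-type, 1.01 and 1.38 in TbxtΔexon6/Δexon6, 0.674 and 0.823 in TbxtΔexon6/+ and 2.23 and 1.83 in TbxtinsASAY/insASAY libraries. With 2 libraries a group, these ratios were given no test.

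**Figure D3:**
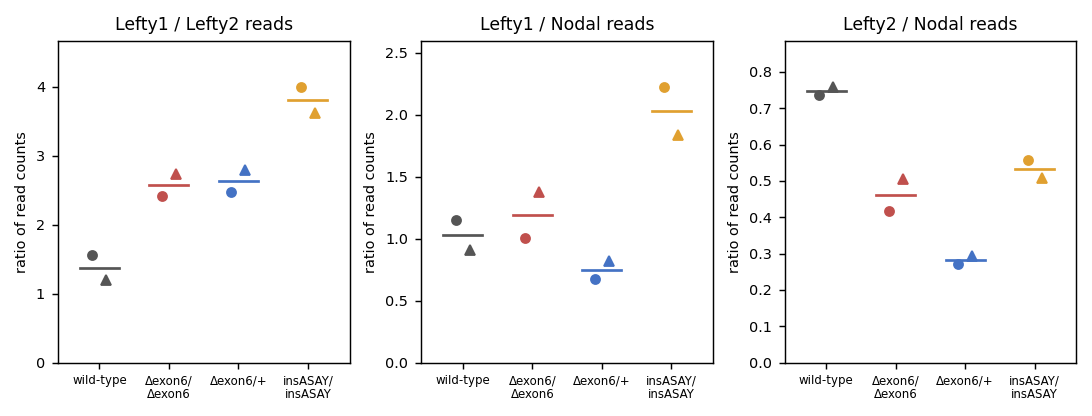
Ratios of read counts in each library (linear axis from 0) for Lefty1 to Lefty2, Lefty1 to Nodal and Lefty2 to Nodal, by genotype; circles are replicate 1, triangles replicate 2 and bars the mean of both. The Lefty1 to Lefty2 ratio runs from 1.20 to 1.56 in wild-type and from 3.62 to 4.003 in TbxtinsASAY/insASAY, and the Lefty2 to Nodal ratio is lowest in TbxtΔexon6/+.

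Cer1 (chr4:82881751-82885148, minus strand), a secreted antagonist of Nodal, BMP and Wnt ligands made by anterior visceral endoderm and early endoderm, had 0 reads in all 8 libraries and was given no test. A count of 0 allows up to 3 reads, which is 0.105 to 0.122 CPM at these depths, and this limit covers counting error only. A list of 10 genes of primitive and visceral endoderm, 8 of them tested, summed to 25.42 to 28.15 CPM in wild-type libraries. The sum was 28.85 to 28.93 in TbxtΔexon6/+, 20.24 to 24.86 in TbxtΔexon6/Δexon6 and 22.58 to 23.65 in TbxtinsASAY/insASAY libraries. Of the 8, 2 were called higher in TbxtΔexon6/+, 1 was called lower in TbxtΔexon6/Δexon6 and 0 were called in TbxtinsASAY/insASAY cells. Over all tested genes 13.5%, 12.7% and 21.3% were called in these lines, in that order.

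Foxh1 (chr15:76668225-76669948, minus strand), the DNA-binding partner of the Smad complex, had 68.7 and 75.1 CPM in wild-type, 75.9 and 68.3 in TbxtΔexon6/Δexon6, 73.6 and 70.5 in TbxtΔexon6/+ and 59.4 and 56.9 in TbxtinsASAY/insASAY libraries. The deletion lines overlapped wild-type and the TbxtinsASAY/insASAY libraries lay below all others. The log2 difference from wild-type in TbxtinsASAY/insASAY cells was -0.31 (SE 0.0661, adjusted p = 0.00205), under the threshold on size. The 95% interval of the difference was -0.14 to 0.15 in TbxtΔexon6/Δexon6 and -0.14 to 0.14 in TbxtΔexon6/+ cells.

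Skil (chr3:31095058-31122577, plus strand), a nuclear co-repressor that restrains Smads and is itself a target of the pathway, had 153.2 and 146.1 CPM in wild-type, 150.5 and 151.9 in TbxtΔexon6/Δexon6, 124.3 and 122.6 in TbxtΔexon6/+ and 134.3 and 131.7 in TbxtinsASAY/insASAY libraries. The TbxtΔexon6/+ libraries were the lowest, the TbxtinsASAY/insASAY libraries came next, and the other genotypes overlapped. The log2 difference from wild-type was -0.28 (SE 0.0455, adjusted p = 0.000476) in TbxtΔexon6/+ and -0.17 (SE 0.0453, adjusted p = 0.00777) in TbxtinsASAY/insASAY cells, both under the threshold on size. Skil lies on chromosome 3, whose 848 tested genes had a median log2 difference of 0.32 in TbxtΔexon6/+ cells against wild-type, with 242 called higher and 64 lower. The 40 tested genes nearest to Skil, 20 on each side, had a median of 0.03, with 3 called higher and 0 called lower. The medians of the 40 nearest genes of Nodal, Lefty1, Lefty2 and Tdgf1 in the same comparison were -0.04, -0.02, -0.03 and -0.09, with 1 to 5 called lower.

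Between mutant lines, 4 of the 8 genes were called lower in TbxtΔexon6/+ than in TbxtΔexon6/Δexon6 cells, beside 22.2% of all tested genes called and 11% called lower. They were Lefty2 (log2 difference -1.63, adjusted p = 1.01e-05), Lefty1 (-1.61, 1.71e-05), Tdgf1 (-1.44, 2.55e-07) and Nodal (-0.91, 1.18e-05). TbxtΔexon6/+ cells keep an intact Tbxt allele and TbxtΔexon6/Δexon6 cells keep none. Genotype cannot be told apart from cell line or clone here, and no cause was tested. The same 4 genes were called lower in TbxtΔexon6/+ than in each of the other 3 genotypes, as were 485 of all tested genes (2.84%).

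Against TbxtΔexon6/+ cells, TbxtinsASAY/insASAY cells had 4 of 8 genes called higher, beside 27.5% of all tested genes called and 14.6% called higher. The log2 difference was 2.59 for Lefty1 (adjusted p = 2.35e-07), 2.06 for Lefty2 (8.93e-07), 1.91 for Tdgf1 (2.36e-08) and 1.15 for Nodal (1.22e-06). Lefty1 thus differed 6.04-fold between these lines. Against TbxtΔexon6/Δexon6 cells, 1 of 8 was called, beside 5.16% of all tested genes called and 2.79% called higher, and it was Lefty1, higher in TbxtinsASAY/insASAY by 0.99 (SE 0.155, adjusted p = 0.00104). Tdgf1 differed by 0.47 (adjusted p = 0.00257) between these lines, just under the threshold on size. The count rose to 3 without the first TbxtΔexon6/Δexon6 clone, with Tdgf1 and Gdf3 added, and to 2 without the second clone or without the second TbxtinsASAY/insASAY library.

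The median log2 difference of the 8 genes from wild-type was -0.16 in TbxtΔexon6/Δexon6, -0.54 in TbxtΔexon6/+ and -0.16 in TbxtinsASAY/insASAY cells, while the median over all tested genes lay between -0.01 and 0.00. The patterns of the 8 genes over the 8 libraries were compared by the root mean square difference of their centred log2 CPM, on which 0 means the same pattern. Among the 4 genes that moved, Lefty2 and Tdgf1 were the closest pair, at 0.204, whereas Lefty1 and Lefty2 differed by 0.542. Skil and Foxh1 were the closest pair of all, at 0.166, neither of which was called against wild-type. Their highest CPM was only 1.25 and 1.335 times their lowest. The measure is not scaled by spread, so genes that vary little lie close whatever their pattern.

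The same measure over 12829 genes (mean CPM of 2 or more) named the genes most like each called gene. Dok2, an adaptor of tyrosine kinase signalling, came first for both Lefty2 (0.199, against a median of 0.886 over the genes searched) and Tdgf1 (0.246, median 0.876). Mep1b and Usp17la followed for Lefty2, at 0.289 and 0.290, and Usp17la and Usp17le for Tdgf1, at 0.286 and 0.297. Usp17la and Usp17le belong to a family of near-identical deubiquitinase genes, so their counts are uncertain. Nodal was closest to Acp5 (0.0562, median 0.462), Rassf7 and Ctxn1. Lefty1 was closest to Slc23a1 (0.152, median 0.952), Cbr3 and Galr2. These distances are a description over 8 libraries of 4 genotypes and grow with the spread of the gene. The standard deviation of log2 CPM was 0.465 for Nodal, 0.919 for Tdgf1, 0.933 for Lefty2 and 1 for Lefty1.

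Of 63 other genes of the pathway in 5 lists, 62 were found in the files and 54 were tested. Against wild-type, 11 of the 54 fell and 5 rose in TbxtΔexon6/+ cells, 2 fell and 6 rose in TbxtΔexon6/Δexon6 cells, and 9 fell and 3 rose in TbxtinsASAY/insASAY cells. These 16, 8 and 12 of 54 stand beside 13.5%, 12.7% and 21.3% of all tested genes called in the same comparisons, and 6.89% of all called lower in TbxtΔexon6/+ cells. The median log2 difference of the 54 was -0.08, -0.02 and -0.12 in the same order. Of the 54, 5 (Pmepa1, Tgfb1, Tgfbr2 and Eomes among them) were called lower in TbxtΔexon6/+ than in each of the other 3 genotypes, beside 2.84% of all tested genes.

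Among ligands and their processing enzymes (10 tested), 3 fell and 2 rose in TbxtΔexon6/+ cells, 3 rose in TbxtΔexon6/Δexon6 cells, and 1 rose and 1 fell in TbxtinsASAY/insASAY cells. Over all tested genes 13.5%, 12.7% and 21.3% were called in these lines, in that order. Gdf11, a ligand of activin receptors, rose in all 3 lines, with log2 fold changes of 1.30 in TbxtΔexon6/+, 0.84 in TbxtΔexon6/Δexon6 and 1.00 in TbxtinsASAY/insASAY cells. The Gdf11 call in TbxtΔexon6/Δexon6 cells was lost without the second clone (0.47) and without the second wild-type library (0.63). Tgfb1 fell by 1.27 in TbxtΔexon6/+ cells, from 12.9 and 13.3 to 5.53 and 5.31 CPM. Tgfb2 was called in every line, with log2 fold changes of -1.43 in TbxtΔexon6/+, -0.96 in TbxtinsASAY/insASAY and 0.73 in TbxtΔexon6/Δexon6 cells. The Tgfb2 call in TbxtΔexon6/Δexon6 cells (adjusted p = 0.0339) was lost with DESeq2 and without any of 5 libraries, the second clone (0.33) among them, and that in TbxtinsASAY/insASAY cells without the first of its libraries or the second of wild-type.

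Of the receptors (5 tested), 1 fell in TbxtΔexon6/+ cells, 1 rose and 1 fell in TbxtΔexon6/Δexon6 cells, and 1 fell in TbxtinsASAY/insASAY cells. For this list and the antagonists, the shares called over all tested genes were 13.5%, 12.7% and 21.3%, in that order of lines. With 5 and 10 genes, these counts were given no test. The type I receptor Acvr1b and the type II receptor Acvr2a were called in none of the lines, with log2 differences from -0.21 to 0.23. Tgfbr3, a co-receptor of TGF-β, fell by 0.73 in TbxtΔexon6/Δexon6 cells. Among antagonists outside the cell (10 tested), 1 rose and 1 fell in TbxtΔexon6/+ cells, 1 rose in TbxtΔexon6/Δexon6 cells, and 1 rose and 2 fell in TbxtinsASAY/insASAY cells. Fst, the follistatin that binds activin, had 4.73 and 5.06 CPM in wild-type, 11.0 and 8.62 in TbxtΔexon6/Δexon6, 5.83 and 6.21 in TbxtΔexon6/+ and 17.8 and 15.7 in TbxtinsASAY/insASAY libraries. It rose 3.41-fold in TbxtinsASAY/insASAY cells (log2 fold change 1.77, SE 0.136, adjusted p = 2.1e-06) and by 1.00 (SE 0.143, adjusted p = 0.000313) in TbxtΔexon6/Δexon6 cells.

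Of the 14 Smads and nuclear partners, 1 fell in TbxtΔexon6/+ cells (13.5% of all tested genes called), 2 fell in TbxtinsASAY/insASAY cells (21.3%) and 0 passed both thresholds in TbxtΔexon6/Δexon6 cells (12.7%), where 5 had an adjusted p below 0.05. With 14 genes these counts of calls lie near the shares over all genes, and no share at adjusted p alone is given here. The signal transducers Smad2, Smad3 and Smad4 were called in none, with log2 differences from wild-type between -0.13 and 0.26. The inhibitory Smad7, itself induced by the pathway, fell by 0.84 in TbxtinsASAY/insASAY cells (adjusted p = 9.29e-05), and the 1 gene that fell in TbxtΔexon6/+ cells was Smad7 too, by 0.99. Smad7 also stands in the list of targets, so its falls are counted in both lists. Of 16 tested targets, 6 fell and 2 rose in TbxtΔexon6/+ cells, 1 fell and 1 rose in TbxtΔexon6/Δexon6 cells, and 4 fell and 1 rose in TbxtinsASAY/insASAY cells. The shares over all tested genes were again 13.5%, 12.7% and 21.3%, in that order. Pmepa1, induced by TGF-β signalling in many cells, fell by 1.01 in TbxtΔexon6/+ cells. Nanog, the pluripotency factor that Smad2 and Smad3 help to maintain, fell in all 3 lines, by 1.04 in TbxtΔexon6/Δexon6, 0.80 in TbxtΔexon6/+ and 0.73 in TbxtinsASAY/insASAY cells.

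**Figure D4:**
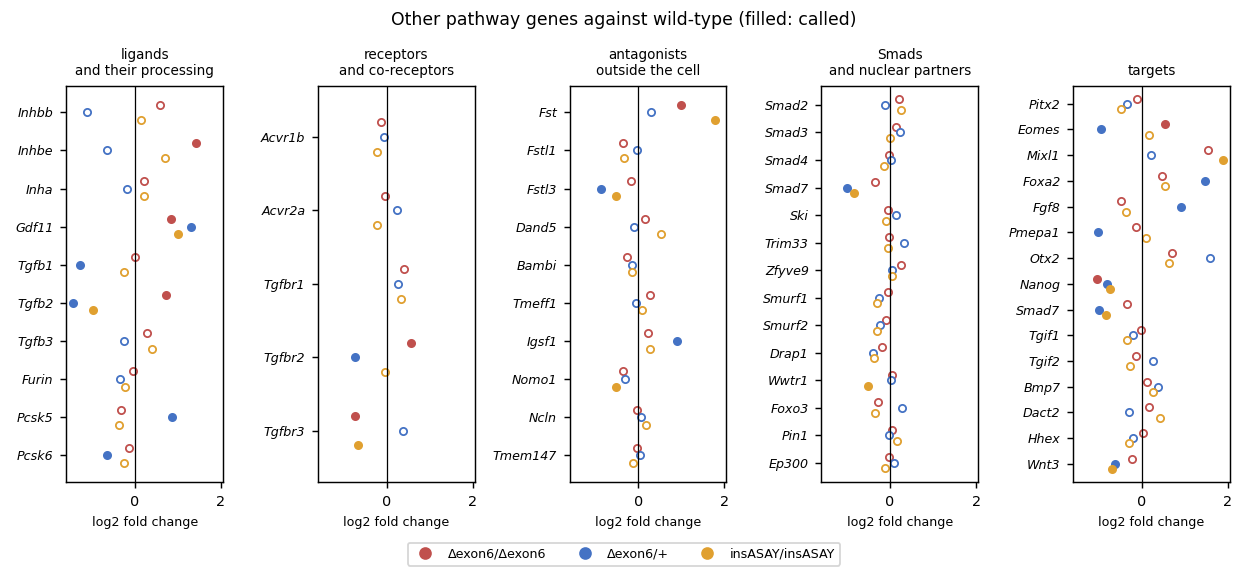
Log2 fold change against wild-type of the other pathway genes, in 5 panels by role and in 3 colours by mutant line; filled points passed both thresholds. Of the Smads and nuclear partners, 1 is filled in TbxtΔexon6/+, 2 in TbxtinsASAY/insASAY and 0 in TbxtΔexon6/Δexon6, and Fst in TbxtinsASAY/insASAY is the filled point furthest to the right among the antagonists.

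Tbxt itself, named T in the annotation, was low in all libraries, at 22 to 54 reads. It had 1.70 and 1.56 CPM in wild-type, 1.05 and 0.807 in TbxtΔexon6/Δexon6, 1.48 and 2.21 in TbxtΔexon6/+ and 1.09 and 1.06 in TbxtinsASAY/insASAY libraries. It was called lower in TbxtΔexon6/Δexon6 cells (log2 fold change -0.81, SE 0.277, adjusted p = 0.036), a call lost with DESeq2 (adjusted p = 0.162), in a fit of only these 2 genotypes and without any of 5 libraries. Counts per gene do not show whether exon 6 is present, so they do not check the genotypes.

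Marker genes of cell states also differed between the lines, and which lines differed varied by list. The summed pluripotency list, at least 1276 CPM in wild-type, was 622.5 and 809.5 CPM in TbxtΔexon6/Δexon6, 736.3 and 738.5 in TbxtΔexon6/+ and 837.8 and 879.5 in TbxtinsASAY/insASAY libraries. Of its 10 genes, 6, 7 and 4 were called lower in these lines, and 1, Sox2, was called higher in TbxtΔexon6/+ cells. Over all tested genes 12.7%, 13.5% and 21.3% were called in these lines, and these shares hold for every list below. Dppa5a was the largest part of the sum, with means of 544.3 CPM in wild-type, 200.3 in TbxtΔexon6/Δexon6, 181.5 in TbxtΔexon6/+ and 270.3 in TbxtinsASAY/insASAY cells. Tdgf1 is one of those 10 genes, as is Nanog. Of 7 neural progenitor genes 5 were tested, and 3 rose in TbxtΔexon6/+ cells: Sox1 by 2.04, Zic1 by 1.70 and Pax6 by 1.31. Nes, the most abundant gene of that list, had 89.7 and 94.1 CPM in wild-type and 68.2 in both TbxtΔexon6/+ libraries, a log2 difference of -0.43 (adjusted p = 0.00968), under the threshold on size. It rose by 0.81 in TbxtΔexon6/Δexon6 cells, to 135.6 and 185.5 CPM, and made up most of the summed level of the list. That sum was 103.7 and 104.9 CPM in TbxtΔexon6/+ against 101.4 and 103.2 in wild-type, 116.2 and 125.8 in TbxtinsASAY/insASAY and 146.5 and 195.3 in TbxtΔexon6/Δexon6 libraries. Hes5 and Neurog2, the neural genes not tested, were at 0 to 3 reads. Of 8 fibroblast genes 6 were tested, and 5 fell in TbxtinsASAY/insASAY cells, where Lefty1 rose. The fibroblast list summed to 18.9 CPM in both of those libraries against 39.2 to 44.2 in wild-type, 27.7 to 35.3 in TbxtΔexon6/Δexon6 and 38.1 to 38.7 in TbxtΔexon6/+, and Postn was at 0 to 2 reads throughout. Of 6 trophoblast genes 5 were tested: 3 fell and 1 rose in TbxtinsASAY/insASAY, 2 fell in TbxtΔexon6/Δexon6, and 1 fell and 1 rose in TbxtΔexon6/+ cells. Their sum was 32.2 to 34.2 CPM in wild-type, 20.8 to 25.4 in TbxtΔexon6/Δexon6, 27.5 to 27.9 in TbxtΔexon6/+ and 20.9 to 21.2 in TbxtinsASAY/insASAY libraries, with Elf5 at 0 to 2 reads. Of 10 primitive streak and mesoderm genes 6 were tested: 2 fell and 1 rose in TbxtΔexon6/+ cells, and 1 fell and 1 rose in each other line. Their sum was 21.5 to 23.4 CPM in wild-type, 26.8 to 27.8 in TbxtΔexon6/Δexon6, 14.9 to 17.4 in TbxtΔexon6/+ and 20.8 to 23.5 in TbxtinsASAY/insASAY libraries, with Msgn1 at 0 to 2 reads. Eomes was the largest part of that sum, at a mean of 13.99 CPM in wild-type and 7.25 in TbxtΔexon6/+ cells. Fgf8, of the same list, was higher there, at 2.64 CPM against 1.41 in wild-type. The part of these markers in the levels of Nodal, Tdgf1 and the Lefty genes was not tested.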

How the data were processed

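Poly(A) RNA was sequenced as stranded, paired reads from 8 libraries. Per the labels the authors aligned with STAR 2.7.2a to mm10 (GRCm38). They deposited its gene counts as raw whole numbers, in 3 columns by strand. The annotation release is not given in the sources used here. The counts opposite in strand to read 1 were used, since the other strand held 4.11% to 4.78% of stranded reads. STAR counts only reads with a single place in the genome. The 4 summary lines, found in 7 of the 8 files, were left out. Depth was 24618587 to 28445952 reads per library, and the 203 to 1505 reads of Lefty1 or the 78 to 419 of Lefty2 set their precision.

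Identifiers were matched to GENCODE M21 (48058 of 48440). Counts were fitted in R 4.3.3 with edgeR 4.0.16: TMM, filterByExpr (minimum count 10, minimum total 15) and the quasi-likelihood test, all 8 libraries sharing 1 fit in which each genotype had its own mean, Benjamini-Hochberg adjusted over 17049 genes. Thresholds (adjusted p below 0.05, log2 fold change beyond 0.5) were those of the study, whose authors used DESeq2 1.40.2. The log2 CPM used a prior count of 2. The fit was also run on simulated counts, and no result of that run is given here. Alternatives were DESeq2 1.42.0, its size factors within edgeR, unstranded counts, no low-count filter or a stricter one (10 counts in each library), a fit of only the 2 groups, a replicate block, and leaving out chromosome 3 or each library. Motifs were searched in RefSeq promoters and transcripts compared in Python 3.11.15 with Biopython 1.88. Figures used matplotlib 3.10.9.

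The 9 genes and all lists were chosen with earlier results of these data known. Besides the 9 genes, named pathway genes are the 5 with the largest log2 fold change among those called against wild-type with a mean CPM of 2 or more in each comparison, and Smad2, Smad3, Smad4, Acvr1b, Acvr2a, Fst and T. Tgfbr2, Eomes, Sox1, Zic1, Pax6, Nes, Elf5, Hes5, Neurog2, Postn and Msgn1 were named after their values were seen. So were Dppa5a, Sox2 and Fgf8, and Smad7 and Nanog in TbxtΔexon6/+ cells. One gene that this rule names is not reported or plotted here.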

Additional observations from a re-analysis of the deposited data

How the results depend on the processing

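Of the 48 fold changes of the 8 tested genes over 6 comparisons, 34 kept their direction and their side of the thresholds under all 16 alternatives. Skil, on chromosome 3, has no value without that chromosome. Of the 16 that were called, 15 did so, the exception being Lefty2 in TbxtΔexon6/Δexon6 against wild-type. Leaving out each library gave 1 to 3 of the 8 genes called in TbxtΔexon6/Δexon6 against wild-type and 1 to 3 in TbxtinsASAY/insASAY against TbxtΔexon6/Δexon6. Over all genes it gave 1149 to 3388 called in the first comparison, with the extremes without the second and without the first clone, and 358 to 1529 in the second comparison. DESeq2 gave 582 and a fit of only the 2 groups 572 in that second comparison, against 880. For the other pathway genes, leaving out a library gave 4 to 11 called in TbxtΔexon6/Δexon6 and 7 to 13 in TbxtinsASAY/insASAY against wild-type, 2 to 6 between those lines (3 with only the 2 groups) and 10 to 17 between TbxtinsASAY/insASAY and TbxtΔexon6/+. The cause was not tested.

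Signs turned for small differences that were not called. Foxh1 in TbxtΔexon6/Δexon6 against wild-type became -1e-04 with at least 10 counts in every library and -7e-04 with unstranded counts. Foxh1 in TbxtΔexon6/+ against TbxtΔexon6/Δexon6 became 0.0026 and 0.007 under those settings and 0.0083 without chromosome 3. Leaving out a library gave -0.0677 to 0.0789, -0.0621 to 0.0672 and -0.077 to 0.0721 for Foxh1 in TbxtΔexon6/Δexon6, in TbxtΔexon6/+ and between them. Likewise Lefty1 ran from -0.0093 to 0.645 and Skil from -0.0197 to 0.0499 in TbxtΔexon6/Δexon6, Gdf3 from -0.0481 to 0.12 in TbxtinsASAY/insASAY, and Acvr2b from -0.109 to 0.0658 in TbxtΔexon6/+ and from -0.0635 to 0.224 between TbxtinsASAY/insASAY and TbxtΔexon6/Δexon6. Smad3 ran from -0.0285 to 0.0413 in TbxtinsASAY/insASAY, Smad4 from -0.0642 to 0.0294 in TbxtΔexon6/Δexon6 and from -0.0218 to 0.0501 in TbxtΔexon6/+, Acvr1b from -0.1226 to 0.0055 in TbxtΔexon6/+, Acvr2a from -0.1127 to 0.0345 in TbxtΔexon6/Δexon6, and T from -0.1433 to 0.435 in TbxtΔexon6/+.

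The replicate block called 2, 4 and 1 of the 8 genes against wild-type, as without it. Deviations of same-numbered libraries correlated between -0.1 and 0.07, so no shared effect was seen. This cannot exclude that same-numbered libraries were prepared together. At these depths a gene without reads can be limited only to 3 counts.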

Other observations

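Other ratios within libraries, chosen after the values were seen, set Tdgf1 and Nodal against Acvr2b and Gdf3, which were not called against wild-type. The Tdgf1 to Acvr2b ratio of read counts, co-receptor to receptor, was 2.32 and 2.13 in wild-type, 2.24 and 1.92 in TbxtinsASAY/insASAY, 1.87 and 1.34 in TbxtΔexon6/Δexon6 and 0.447 and 0.496 in TbxtΔexon6/+ libraries. The Nodal to Gdf3 ratio was 0.528 and 0.534 in wild-type, 0.650 and 0.673 in TbxtinsASAY/insASAY, 0.587 and 0.930 in TbxtΔexon6/Δexon6 and 0.292 and 0.271 in TbxtΔexon6/+ libraries. TbxtΔexon6/+ was below all other libraries in both. No test was made.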
